A study of Arabidopsis thaliana with 6 samples.

Results

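The 62 loci described here were protein-coding genes with many AGO1-bound small RNAs in ein5 dcl4 plants. Their small RNAs were nearly absent both without DCL2 and in wild type. They were chosen by 3 measured values out of 32420 loci. A locus had to hold at least 1000 deposited units in ein5 dcl4, a log2 ratio of ein5 dcl4 over Col-0 of at least 5, and a log2 ratio of ein5 dcl4 over ein5 dcl4 dcl2 of at least 5, each ratio taken after adding 1 unit. In all 80 loci met these thresholds, and 18 of them, nitrate reductase, SMXL, HSP70, HSP90, bromodomain, acyltransferase and glucosinolate genes, were left out by name. The differences of the 62 loci between ein5 dcl4 and either other genotype are therefore a description and were not tested.

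An antibody against ARGONAUTE1 (AGO1), which carries most plant miRNAs and many siRNAs to their target RNAs, was used to isolate small RNAs from Arabidopsis thaliana aerial tissue at 20 days. The plants had spent 6 days on MS medium and 14 days on soil, and received no treatment. There were 6 libraries, 2 from each of 3 genotypes: the double mutant ein5-1 dcl4-2, the triple mutant ein5-1 dcl4-2 dcl2-1 and wild-type Col-0. Both mutants lack EIN5 and DCL4 function throughout the plant and differ from each other in DCL2. Each genotype is represented by 1 mutant combination, and the replicates are called biological in the study's design text. All libraries came from AGO1, so loading onto AGO1 and the abundance of a small RNA cannot be told apart, nor can fewer cells that make a small RNA and less of it per cell. Small RNA reads carry no markers by which the tissue could be checked.

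mRNAs that have lost their cap are degraded in the cytoplasm by EIN5, an exonuclease also known as XRN4. When such RNAs are not degraded, RNA-dependent RNA polymerase can copy them into double-stranded RNA, which Dicer-like enzymes cut into siRNAs. DCL4 makes the main class of these siRNAs in wild type, and DCL2 makes a longer class that is known for triggering further rounds of siRNA production. siRNAs from an mRNA loaded onto AGO1 can act on that same mRNA.

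Each value counts small RNAs that match a locus and is no mRNA level; it is given in the units of the deposited table. The reads behind each deposited genotype mean were recovered for 2 libraries per genotype, called a and b. They came to 1292727 and 836879 reads in ein5 dcl4, 1102996 and 843408 in ein5 dcl4 dcl2 and 1217707 and 957043 in Col-0. One read was worth 1.92 and 2.79 units in the ein5 dcl4 libraries, 1.71 and 1.90 in the ein5 dcl4 dcl2 libraries, and 0.185 and 0.257 in the Col-0 libraries. A library with 0 reads at a locus allows up to 3 reads there, which is 5.75 and 8.37 units in ein5 dcl4, 5.12 and 5.70 in ein5 dcl4 dcl2 and 0.555 and 0.770 in Col-0. These upper limits take in counting error alone. The summed units of all loci also differed, so a value in units and a share of the reads can point different ways between genotypes, and both are given where they do.

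The 62 loci together held 18.5% and 17.5% of all table reads in the ein5 dcl4 libraries, 0.0169% and 0.0216% in the ein5 dcl4 dcl2 libraries, and 0.0533% and 0.0451% in the Col-0 libraries. In reads these were 239007 and 146329 in ein5 dcl4, 186 and 182 in ein5 dcl4 dcl2, and 649 and 432 in Col-0. The 18 loci left out by name held another 70.9% ± 0.0129 (SD, n = 2) of the ein5 dcl4 reads. As a group these 18 were higher than the 62, with means of 2556 to 616729 units in ein5 dcl4 and a median of 30143. At each of the 62 loci both ein5 dcl4 libraries lay above all 4 other libraries, a separation that the rule all but fixes. Mean values in ein5 dcl4 ran from 1173 to 28465 units with a median of 4454. The authors' deposited table gives these loci log2 ratios of 6.60 to 16.1 for ein5 dcl4 over Col-0 (median 12.9) and of 6.88 to 13.9 for ein5 dcl4 over ein5 dcl4 dcl2 (median 10.8). In the recovered values the same loci had medians of 3.23 units in ein5 dcl4 dcl2 and 0.634 units in Col-0. The 10 highest loci held 46.8% ± 0.0921 (SD, n = 2) of the reads of all 62 in ein5 dcl4.

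**Figure D1:**
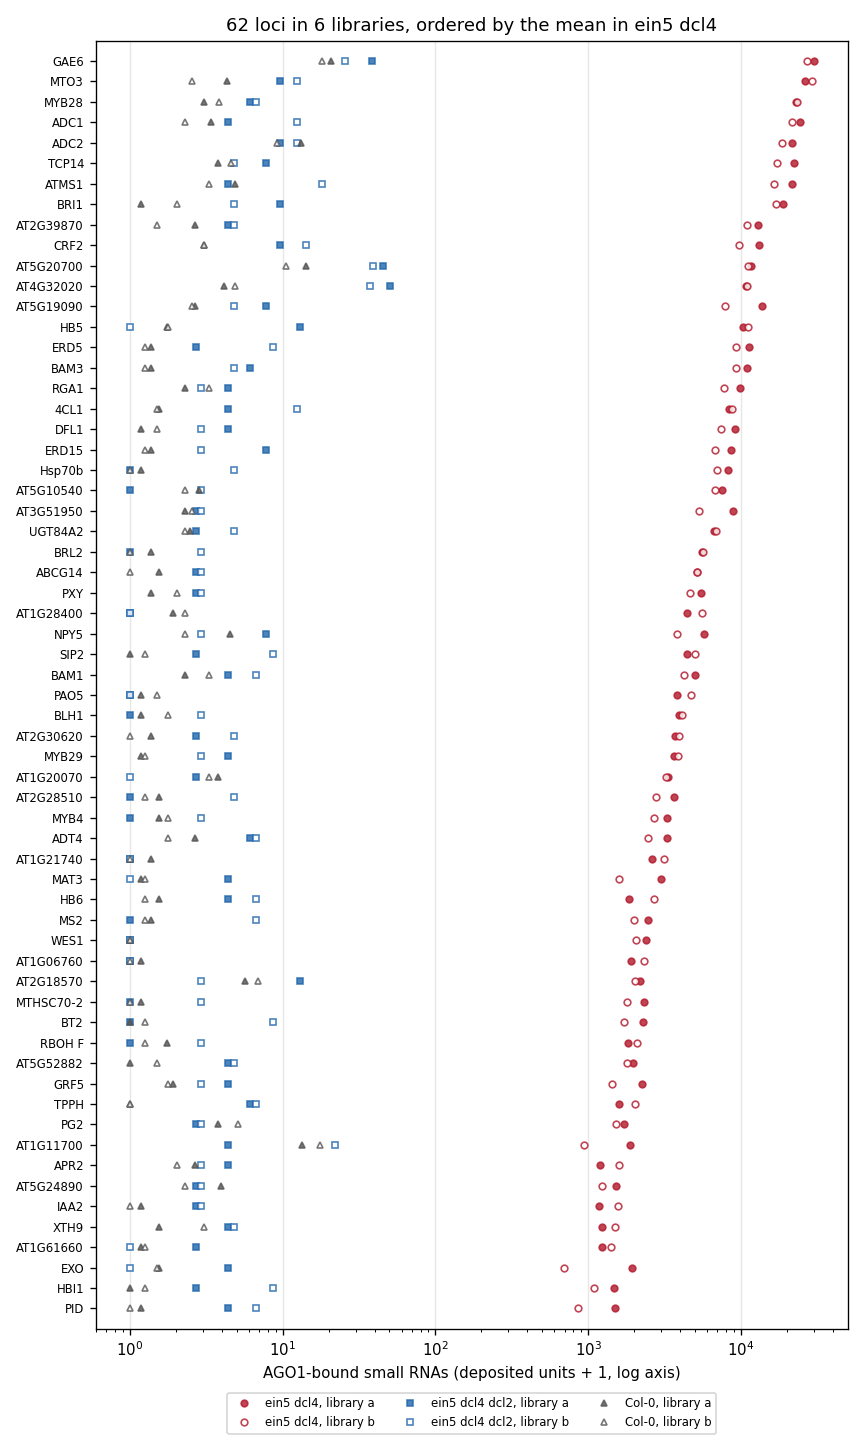
AGO1-bound small RNAs of the 62 loci in each library, in deposited units + 1 on a log axis, with filled symbols for library a and open symbols for library b. The ein5 dcl4 libraries lie between 697 and 29856 units, and no library of ein5 dcl4 dcl2 or Col-0 is above 49.5 units.

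Enzymes of primary metabolism were among the highest loci. GAE6 (AT3G23820, TAIR10.1 chr3:8603212-8605810, plus strand, 1 exon), an epimerase that makes the UDP-galacturonate used for pectin, held 29856 and 27073 units in ein5 dcl4, 37.6 and 24.7 in ein5 dcl4 dcl2, and 19.8 and 17.2 in Col-0. It had the highest mean in ein5 dcl4 (28465 ± 1968 units, SD, n = 2) and also the highest mean of the 62 loci in Col-0. Per kb of transcript the highest locus was MTO3 with 16366 units per kb, followed by MYB28 with 12131 and GAE6 with 10952. PG2 (AT1G70370), a polygalacturonase-related protein, and XTH9 (AT4G03210), which rejoins xyloglucan chains, are also cell wall genes and were near the lower end, with 1725 and 1523 units for PG2 and 1237 and 1495 for XTH9 in ein5 dcl4.

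The methionine cycle was represented by 4 genes. MTO3 (AT3G17390, chr3:5952187-5954091, minus strand), which makes S-adenosylmethionine from methionine, held 26327 and 29221 units in ein5 dcl4, 8.54 and 11.4 in ein5 dcl4 dcl2, and 3.33 and 1.54 in Col-0. ATMS1 (AT5G17920, chr5:5935038-5939865, plus strand), a methionine synthase, held 21687 and 16381 units in ein5 dcl4, 3.42 and 17.1 in ein5 dcl4 dcl2, and 3.89 and 2.31 in Col-0. In ein5 dcl4 dcl2 these were 2 reads of ATMS1 in library a and 9 in library b. The second members of both families were lower, with 2988 and 1592 units for MAT3 (AT2G36880) and 2465 and 1983 for MS2 (AT3G03780) in ein5 dcl4.

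The other 5 genes of the cycle on the list used here, SAM1, SAM-2, MS3, SAHH1 and SAHH2, were not among the 62. Of these 4 passed the filter on low values, a mean of at least 1 unit, only through ein5 dcl4 and so had to be higher there, and their calls carry no weight. The same holds for most genes of the lists that follow, for which values alone are given. SAHH1 would have passed without ein5 dcl4, and was called higher in ein5 dcl4 relative to Col-0 and lower in ein5 dcl4 dcl2 than in ein5 dcl4 (limma, adjusted p under 0.05 over all loci). Over all 11376 loci tested, 38.7% were called higher in the first comparison and 35.9% lower in the second, and over the protein-coding loci tested 55.4% and 50.6%. These shares take in loci that passed the filter only through ein5 dcl4, so they are no like measure for SAHH1. SAHH1, an enzyme that removes the by-product of methyl transfer, was the highest of the 5 genes with 207 and 162 units in ein5 dcl4 (log2 difference over Col-0 6.39 ± 0.31, SE, limma adjusted p 0.000439). SAM1 held 111 and 86.5 units in ein5 dcl4, 1 and 0 reads in ein5 dcl4 dcl2 and 0 and 1 read in Col-0.

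The coding sequences of the S-adenosylmethionine synthetase genes show how far reads of one could count for another. MTO3 and MAT3 code for proteins with 90.7% identical residues, and their longest shared run of bases is 41. MTO3 and SAM1 are 90.8% identical in protein, and their longest shared run is 20 bases, so that they share no run of 21 bases. Capitals mark the shared run, with 5 bases on each side, from RefSeq on TAIR10.1 (MTO3 chr3:5953245-5953295 and chr3:5953551-5953580, minus strand, MAT3 chr2:15480473-15480523, minus strand, SAM1 chr1:519122-519151, plus strand).
MTO3 beside MAT3: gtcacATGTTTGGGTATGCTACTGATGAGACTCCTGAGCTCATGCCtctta
MAT3: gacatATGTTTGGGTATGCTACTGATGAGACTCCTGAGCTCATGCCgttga
MTO3 beside SAM1: atgctTGCCTTGAACAAGACCCTGAgagca
SAM1: atgccTGCCTTGAACAAGACCCTGAcagca

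Polyamine synthesis was represented by both arginine decarboxylase genes, which carry out the first step from arginine to putrescine. ADC1 (AT2G16500, chr2:7150514-7153430, minus strand, 1 exon) held 24301 and 21577 units in ein5 dcl4, 3.42 and 11.4 in ein5 dcl4 dcl2, and 2.41 and 1.28 in Col-0. ADC2 (AT4G34710, chr4:16560030-16563044, minus strand, 1 exon) held 21673 and 18587 units in ein5 dcl4, 8.54 and 11.4 in ein5 dcl4 dcl2, and 12.2 and 8.21 in Col-0. ADC1 was above ADC2 in both ein5 dcl4 libraries. ADC2 was the fourth highest of the 62 loci in Col-0, with 66 and 32 reads. PAO5 (AT4G29720), a polyamine oxidase, held 3813 and 4707 units in ein5 dcl4, no reads in either ein5 dcl4 dcl2 library, and 1 and 2 reads in Col-0.

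The remaining 11 polyamine genes on the list were low. Of these 4 passed the filter on low values, each only through ein5 dcl4, and none held more than 16.7 units in a library. PAO1, PAO2, PAO3, CPA and SAMDC had 0 reads in both ein5 dcl4 libraries. ADC1 and ADC2 are 81.3% identical in protein, and 70 runs of 21 bases occur in both transcripts, 2.42% of those in ADC1. Their longest shared run, 40 bases in the coding part, is shown in capitals (ADC1 chr2:7151849-7151898 and ADC2 chr4:16561362-16561411, both minus strand, TAIR10.1).
ADC1: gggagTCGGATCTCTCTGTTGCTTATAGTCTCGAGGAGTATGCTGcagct
ADC2: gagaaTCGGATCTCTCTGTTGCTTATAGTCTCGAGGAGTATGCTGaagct

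Cell surface receptor kinases formed another group. BRI1 (AT4G39400, chr4:18324457-18328831, plus strand, 1 exon), the brassinosteroid receptor, held 18894 and 17025 units in ein5 dcl4, 8.54 and 3.80 in ein5 dcl4 dcl2, and 0.185 and 1.03 in Col-0. Its relative BRL2 (AT2G01950) held 5537 and 5617 units in ein5 dcl4, with 0 and 1 read in ein5 dcl4 dcl2 and 2 and 0 in Col-0. The other receptors of this family on the list, BRL1 and BRL3, held 9.58 and 19.5 units and 32.6 and 16.7 units in ein5 dcl4. These were 12 reads of BRL1 and 23 of BRL3 over both libraries.

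Of 7 receptors on the list for CLE peptides, small signals that control stem cells and vascular tissue, 3 were among the 62. BAM3 (AT4G20270), which acts in phloem development, held 11004 and 9298 units in ein5 dcl4, 3 and 2 reads in ein5 dcl4 dcl2 and 2 and 1 in Col-0. PXY (AT5G61480), a receptor of the cambium, held 5481 and 4657 units in ein5 dcl4 and BAM1 (AT5G65700) 5033 and 4264. BAM2, 85.8% identical to BAM1 in protein, held 674 and 485 units in ein5 dcl4 (log2 difference over Col-0 7.76 ± 0.62, SE, limma adjusted p 0.00173). Per kb this was 161 units for BAM2 against 1301 for BAM1. CLV1 held 49.8 and 19.5 units, and PXL1 and PXL2 had 0 reads in both ein5 dcl4 libraries. PID (AT2G34650), a kinase that directs auxin transport, had the lowest mean of the 62 loci in ein5 dcl4, with 1488 and 859 units.

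Transcription factors and other nuclear proteins made up 14 of the 62 loci by the words of their annotated products, 22.6%, against 9.55% of the protein-coding loci tested. Metabolic enzymes made up 24.2% against 17.1%, and kinases and phosphatases 8.06% against 7.44%. None of the 62 fell in the group of RNA and translation proteins, which held 5.02% of the protein-coding loci tested, or in that of cytoskeleton and vesicle proteins, which held 2.31%. These groups rest on product names, and TCP14, CRF2 and GRF5, all transcription factors, fell outside the first of them. The enzymes GAE6, 4CL1, ADT4, DFL1 and WES1 fell outside the metabolic enzymes, and the receptor BRL2 outside the kinases. The metalloprotease gene AT5G10540 was counted among the metabolic enzymes. The difference between these shares was not tested.

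MYB28 (AT5G61420, chr5:24689069-24691187, minus strand), the main activator of aliphatic glucosinolate synthesis, held 22765 and 23309 units in ein5 dcl4, 5.12 and 5.70 in ein5 dcl4 dcl2, and 2.04 and 2.82 in Col-0. MYB29 (AT5G07690), which acts in the same pathway, held 3664 and 3876 units in ein5 dcl4, with 2 and 1 reads in ein5 dcl4 dcl2 and 1 read in each Col-0 library. The third gene of this group, MYB76, held 109 and 92.0 units in ein5 dcl4, 0 and 1 read in ein5 dcl4 dcl2 and no reads in Col-0. Per kb the 3 genes held 12131, 2178 and 67.6 units. MYB4 (AT4G38620), a repressor of phenylpropanoid genes, held 3282 and 2711 units in ein5 dcl4. MYB28 and MYB29 share a run of 29 bases in the coding part (MYB28 chr5:24690230-24690268, minus strand, and MYB29 chr5:2447582-2447620, plus strand, TAIR10.1), in capitals here, and 12 runs of 21 bases in all.
MYB28: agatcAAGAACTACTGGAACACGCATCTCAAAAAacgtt
MYB29: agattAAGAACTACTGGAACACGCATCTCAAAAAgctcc

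TCP14 (AT3G47620, 1 exon), a growth regulator, held 22163 and 17257 units in ein5 dcl4, 6.83 and 3.80 in ein5 dcl4 dcl2, and 2.78 and 3.59 in Col-0. CRF2 (AT4G23750, 1 exon), a cytokinin response factor, held 13203 and 9666 units in ein5 dcl4, 8.54 and 13.3 in ein5 dcl4 dcl2, and 2.04 and 2.05 in Col-0. HB5 (AT5G65310), a homeodomain protein, held 10376 and 11091 units in ein5 dcl4, 7 and 0 reads in ein5 dcl4 dcl2 and 4 and 3 reads in Col-0. Its relative by name HB6 (AT2G22430) held 1856 and 2686 units in ein5 dcl4. RGA1 (AT2G01570), a DELLA repressor of gibberellin responses, held 9786 and 7697 units in ein5 dcl4, with 3 reads in all in ein5 dcl4 dcl2 and 7 and 9 in Col-0. GAI, the nearest other DELLA gene, held 877 and 555 units in ein5 dcl4 (log2 difference over Col-0 7.70 ± 0.35, SE, limma adjusted p 0.000398), and RGL1, RGL2 and RGL3 had at most 3 reads in any ein5 dcl4 library.

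Further nuclear proteins were at lower values. AT2G30620 and AT1G06760, which code for linker histones and are annotated as winged-helix proteins, held 3694 and 3941 units and 1896 and 2309 units in ein5 dcl4. Their longest shared run is 17 bases. GRF5 (AT3G13960), a growth factor of leaves, held 2231 and 1436 units in ein5 dcl4. HBI1 (AT2G18300), a growth-promoting bHLH protein, held 1475 and 1090 units, close above the threshold. BLH1 (AT2G35940), a homeodomain protein, held 3930 and 4130 units in ein5 dcl4. The GATA, Dof, CCCH and bHLH proteins AT1G28400, AT2G28510, AT3G51950 and AT1G61660 held between 1228 and 8919 units in an ein5 dcl4 library.

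Of 7 GH3 genes on the list, 2 were among the 62. DFL1 (AT5G54510) and WES1 (AT4G27260), GH3 enzymes that join auxin to amino acids, held 9196 and 7346 units and 2398 and 2041 units in ein5 dcl4. WES1 was the only one of the 62 loci with 0 reads in all 4 libraries of ein5 dcl4 dcl2 and Col-0. The pair is 90.4% identical in protein and shares 71 runs of 21 bases, 3.09% of those in DFL1. NPY5 (AT4G37590), which acts with PID, held 5684 and 3826 units in ein5 dcl4, and IAA2 (AT3G23030), an auxin response repressor, held 1174 and 1562. Of the other 5 GH3 genes on the list, GH3.17 (AT1G28130) held 820 and 159 units in ein5 dcl4 on 428 and 57 reads, no reads in ein5 dcl4 dcl2, and 0 and 1 read in Col-0.

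Phenylpropanoid genes included 4CL1 (AT1G51680), which activates 4-coumarate for lignin and flavonoids, with 8348 and 8707 units in ein5 dcl4. UGT84A2 (AT3G21560), a glucosyltransferase of sinapate, held 6691 and 6885 units, and ADT4 (AT3G44720), an arogenate dehydratase of phenylalanine synthesis, held 3294 and 2468. 4CL2, 82.9% identical to 4CL1, held 324 and 351 units in ein5 dcl4 and 0 reads in the 4 other libraries. ADT5, 81.5% identical to ADT4, held 301 and 549 units in ein5 dcl4, and the remaining 4 arogenate dehydratases held at most 17.2 units in a library.

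ERD5 (AT3G30775), the proline dehydrogenase, held 11337 and 9309 units in ein5 dcl4, 1 and 4 reads in ein5 dcl4 dcl2 and 2 and 1 in Col-0. ERD15 (AT2G41430), induced by dehydration, held 8582 and 6782 units in ein5 dcl4. Hsp70b (AT1G16030), a heat-induced chaperone, held 8200 and 6964 units in ein5 dcl4. It shares 3 runs of 21 bases with HSP70 and 3 with Hsp70-2, which are among the 18 loci left out and held 64161 and 7526 units on average. MTHSC70-2 (AT5G09590), its mitochondrial counterpart, held 2300 and 1788 units, and was the only one of the 62 loci with more than 10% of its exonic runs of 21 bases found elsewhere in the genome (22.0%). ABCG14 (AT1G31770), the cytokinin exporter of roots, held 5131 and 5145 units in ein5 dcl4. BT2 (AT3G48360), a nutrient-responsive BTB protein, held 2283 and 1707 units there, and APR2 (AT1G62180), which reduces activated sulfate, held 1187 and 1581.

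Some of the highest loci have no established role. AT2G39870 held 12892 and 11013 units in ein5 dcl4, and AT5G19090, annotated as a metal transport protein, held 13771 and 7806. AT1G20070, AT1G21740 and AT5G24890, likewise without an established role, were lower, at 1221 to 3338 units in an ein5 dcl4 library. AT5G20700 held 11650 and 11111 units in ein5 dcl4 and AT4G32020 10837 and 11013. Both had the highest means of the 62 loci in ein5 dcl4 dcl2. AT5G10540, a metalloprotease gene on chr5:3324812-3334971, plus strand, held 7536 and 6799 units in ein5 dcl4. Its annotated span holds the whole of GTE2 on the opposite strand, 1 of the 18 loci left out, with 35341 and 21703 reads in ein5 dcl4. The exons of both genes share 93 bases, none in the coding part of AT5G10540. The reads of AT5G10540 were 11.1% and 11.2% of those of GTE2 in the ein5 dcl4 libraries, and whether they belong to GTE2 was not tested. Its relative AT5G65620, 93.1% identical in protein, held 3 and 6 reads in ein5 dcl4.

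The libraries of ein5 dcl4 agreed closely for some loci and not for others. The log2 ratio of library a over library b had a median of 0.18 over the 62 loci and ran from -0.53 to 1.46, and 39 of 62 were higher in library a. EXO (AT4G08950), a brassinosteroid-responsive gene, differed most, with 1919 and 697 units, followed by AT1G11700 with 1883 and 937 and MAT3 with 2988 and 1592. With every combination of libraries required to meet the rule, 59 of the 62 loci remained, and EXO, AT1G11700 and PID did not.

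The thresholds lay in a gap for the ratios but not for the level. The members just above 1000 units were PID with 1173, HBI1 with 1283 and EXO with 1308, and the loci just below that met both ratios were AT4G24780 with 973, ERD2 with 939 and UGT78D1 with 919. The lowest ratios among the 62 were those of AT1G11700, with a log2 of 6.74 over ein5 dcl4 dcl2 and 6.50 over Col-0. Next above it were PID with 7.72 and HBI1 with 7.83 over ein5 dcl4 dcl2, and AT2G18570 with 8.39 and PG2 with 8.52 over Col-0. No locus that met the level and the other ratio fell below 5 over Col-0. Only AT1G13360 with 4.43 and MIR831 with 3.46 fell below it over ein5 dcl4 dcl2 alone. Of 20 loci with at least 1000 units in ein5 dcl4 that missed a ratio, 17 were miRNA loci.

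The comparison of ein5 dcl4 dcl2 with Col-0 was not used to choose the loci, although both groups had to be low. It asks what remained of these small RNAs without DCL2, relative to wild type. In deposited units 4 of the 62 loci were called higher in ein5 dcl4 dcl2 and none lower (limma, adjusted p under 0.05 over all loci). Of all loci tested 1.08% were called higher and 0.299% lower, and of the protein-coding ones 0.472% and 0.345%. At an unadjusted p under 0.05 there were 28 higher and 1 lower, beside 11.1% and 4.25% of all loci tested, and 788 and 221 of the 7833 protein-coding ones. The median log2 difference of the 62 loci was 0.97, with 50 above 0 and 11 below. Over the protein-coding loci it was 0.00, with 3785 above 0 and 2628 below. Those loci had medians of 1 read in ein5 dcl4 dcl2 and 2 in Col-0 over both libraries, against 3.5 and 5.5 at the 62 loci. With 1 unit added such low values give small differences, so the 0.00 is no like measure for the 62 loci.

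These values depended on the scale. Summed over the 62 loci, ein5 dcl4 dcl2 held 318 and 346 units and Col-0 120 and 111 units. As a share of table reads ein5 dcl4 dcl2 held 0.0192% ± 0.00333 and Col-0 0.0492% ± 0.00577 (SD, n = 2 each). Per 1000 reads of miRNA loci ein5 dcl4 dcl2 held 0.175 and 0.225 reads and Col-0 0.813 and 0.662. The groups did not overlap on any of the 3 scales, with ein5 dcl4 dcl2 higher in units and lower on the other two, and the exact two-sided permutation p was 0.333 on each, the smallest that 2 libraries against 2 allow. With equal table totals 1 of the 62 loci was called higher and 19 lower, beside 0.65% and 39.7% of all loci then tested and 0.606% and 21.5% of the protein-coding ones. With equal miRNA totals none was called higher and 12 lower, beside 0.024% and 11% of all loci and 0.00766% and 3.15% of the protein-coding ones. The median log2 difference was then -0.69 on both scales. Over protein-coding loci it was -0.68 with equal table totals and -0.23 with equal miRNA totals. With voom on the recovered reads the median of the 62 loci was 2.03, below the 2.36 of the protein-coding loci.

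**Figure D2:**
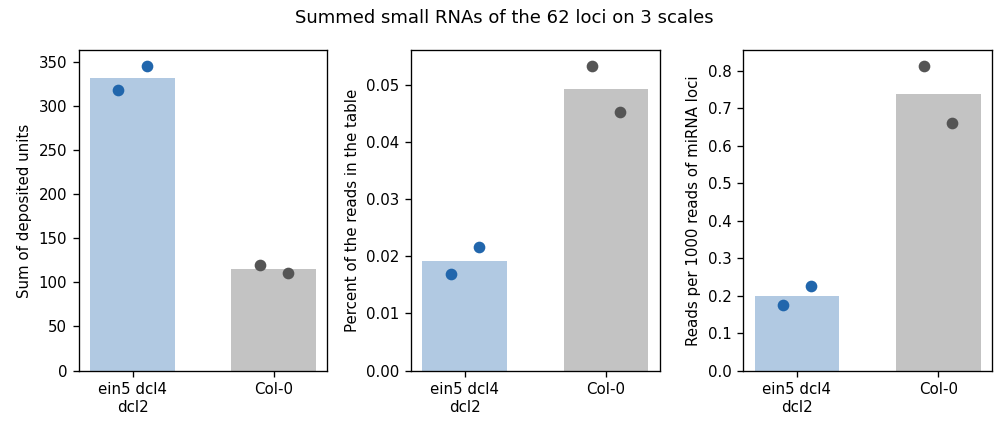
Summed small RNAs of the 62 loci in ein5 dcl4 dcl2 and Col-0 as deposited units, as a percent of the reads in the table and per 1000 reads of miRNA loci, with 1 point per library and bars at the mean. The ein5 dcl4 dcl2 libraries lie above the Col-0 libraries in units (318 and 346 against 120 and 111) and below them on the other scales.

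AT4G32020 (chr4:15487914-15490048, plus strand, 1 exon), annotated as similar to serine and arginine repetitive proteins, differed most. It held 49.5 and 36.1 units in ein5 dcl4 dcl2 and 3.15 and 3.85 in Col-0, a log2 difference of 3.27 ± 0.24 (SE, limma adjusted p 0.0109). In reads it had 29 and 19 in ein5 dcl4 dcl2 and 17 and 15 in Col-0. It was higher in ein5 dcl4 dcl2 on each scale, with a log2 difference of 0.68 at equal table totals and 0.17 at equal miRNA totals, where it was not called (limma adjusted p 0.0566 and 1.00). Leaving out any 1 library ended the call, with limma adjusted p of 0.0545 to 0.186.

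AT5G20700 (chr5:7005667-7007502, minus strand), annotated as a senescence-associated family protein, held 44.4 and 38.0 units in ein5 dcl4 dcl2 and 13.2 and 9.50 in Col-0, with 26 and 20 reads in ein5 dcl4 dcl2 and 71 and 37 in Col-0. The log2 difference was 1.79 ± 0.23 (SE, limma adjusted p 0.0447). It turned to -0.98 at equal table totals and -1.41 at equal miRNA totals (limma adjusted p 0.0262 and 0.0358), and leaving out any 1 library ended the call, with limma adjusted p of 0.0808 to 0.456. The other called loci, named after their values were seen, were BAM3 (limma adjusted p 0.0464) and TPPH (AT4G39770, limma adjusted p 0.0248), a trehalose-phosphate phosphatase. They rest on 3 and 2 reads in ein5 dcl4 dcl2 against 2 and 1 in Col-0 for BAM3, and 3 and 3 against 0 and 0 for TPPH.

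Most of the 62 loci had few reads in either genotype. In ein5 dcl4 dcl2 31 loci had 3 or fewer reads over both libraries and 5 had 0, among them PAO5, WES1 and AT1G28400. In Col-0 24 loci had 3 or fewer and 2 had 0, WES1 and TPPH. After AT4G32020 and AT5G20700 the highest means in ein5 dcl4 dcl2 were those of GAE6 with 31.1 units and AT1G11700 with 12.2. In Col-0 the highest after GAE6 with 18.5 units were AT1G11700 with 14.5, AT5G20700 with 11.3 and ADC2 with 10.2. AT1G11700, a senescence regulator family gene, held 2 and 11 reads in ein5 dcl4 dcl2 and 67 and 65 reads in Col-0. It held 983 and 336 reads in ein5 dcl4. Across the 62 loci, loci with more small RNAs in ein5 dcl4 tended to have more in ein5 dcl4 dcl2 (Pearson's r 0.48 and Spearman's rho 0.47 on the log2 scale) and in Col-0 (0.40 and 0.44). The rule chose the loci by these same values, and its ratios allow more in both other genotypes where ein5 dcl4 is higher. The correlations are therefore a description and carry no weight. These are 62 loci of the same libraries, and longer transcripts can hold more reads in each.

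Features that the rule did not use were compared with those of 7833 protein-coding loci tested, as a description without a test. The 62 loci had a median of 2 exons, against 4, and 62.9% had 1 to 3 exons, against 45.5%. Genes without introns were 18 of 62, or 29.0%, against 20.0%, among them GAE6, ADC1, ADC2, TCP14, BRI1, CRF2, RGA1 and Hsp70b. At the other end 7 of the 62 loci had 10 or more exons, with 18 in AT5G10540 and 14 in SIP2, a galactosidase-like gene, and in RBOH F, an NADPH oxidase. The 91 loci that met both ratios at 100 to 1000 units also had a median of 2 exons, and 69.2% of them had 1 to 3. The 18 loci left out by name, which met the same thresholds as the 62, had a median of 3 exons. Of these 18, 0 had 1 exon and 15 had 1 to 3, or 83.3%. The share of genes without introns thus depends on leaving these loci out. Transcripts of the 62 loci had a median of 2117 bases, against 1833, and a GC content of 41.7%, against 41.8%. Coding length had a median of 1398 bases, against 1275.

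**Figure D3:**
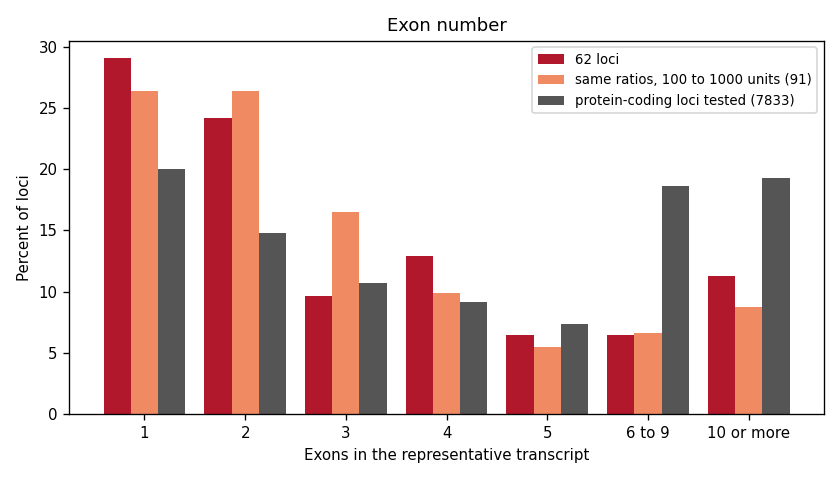
Exon number in the representative transcript of the 62 loci, of 91 loci that met the same ratios at 100 to 1000 units in ein5 dcl4, and of 7833 protein-coding loci tested, as a percent of each group. Genes with 1 or 2 exons are 29.0% and 24.2% of the 62 loci against 20.0% and 14.8% of the protein-coding loci tested. The 18 loci left out by name, of which 0 had 1 exon, are not drawn.

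The 62 loci were spread over the genome, with 12, 13, 12, 12 and 13 on chromosomes 1 to 5. Runs of 21 bases found elsewhere in the genome made up a median of 1.46% of their exons, against 1.10%. Loci with more than 10% of such runs were 1 of the 62, or 1.61%, against 14.2%. Among the 18 loci left out by name, which met the same thresholds, they were 4, or 22.2%. Among the 91 loci that met both ratios at 100 to 1000 units they were 5, or 5.49%. Another gene of the table overlapped 9 of the 62 loci, 14.5% against 23.7%. Apart from GTE2 these neighbours held no reads in ein5 dcl4. MTO3 shares 49 bases with AT3G17380 and APR2 shares 225 bases with AT1G62170.

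Closely related genes were often far apart in ein5 dcl4. Of the 62 loci 44 had a relative with at least 50% identical residues over at least 50% of the longer protein, 14 of them within the 62. Outside the 62 and the 18 there were 111 relatives, none of which reached 1000 units in ein5 dcl4, while 15 reached 100 and 27 had 0 reads. Since a relative above 1000 units with both ratios would have been one of the 62, the gap is in part set by the rule. Of the 111, 73 passed the filter on low values, 62 of them only through ein5 dcl4, so that they had to differ. Of the 11 that would have passed without ein5 dcl4, 9 were called higher in ein5 dcl4 relative to Col-0 (limma, adjusted p under 0.05). Of the same 11, 8 were called lower in ein5 dcl4 dcl2 than in ein5 dcl4. Over all protein-coding loci tested the shares were 55.4% and 50.6%. Those shares take in loci that passed the filter only through ein5 dcl4, so they are no like measure for the 11. Among the 73 relatives tested, 1 was called higher in ein5 dcl4 dcl2 than in ein5 dcl4, beside 355 of the 7833 protein-coding loci.

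The 10 relatives most identical to one of the 62 differed widely in level in ein5 dcl4, and 8 of them passed the filter only through that genotype. Per kb SAM1 held 56.5 units and SAM-2 32.7, against 16366 for MTO3 and 1292 for MAT3. 4CL2 held 170 units per kb against 3841 for 4CL1, ADT5 195 against 1514 for ADT4, and AT2G18560 229 against 1054 for its relative AT2G18570, a glycosyltransferase gene. AT4G28000 held 15.5 units per kb against 529 for AT5G52882. MS3, the methionine synthase 80.7% identical to ATMS1, had 5 and 1 reads in ein5 dcl4, and mtHsc70-1, 79.9% identical to MTHSC70-2, had 9 and 4.

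**Figure D4:**
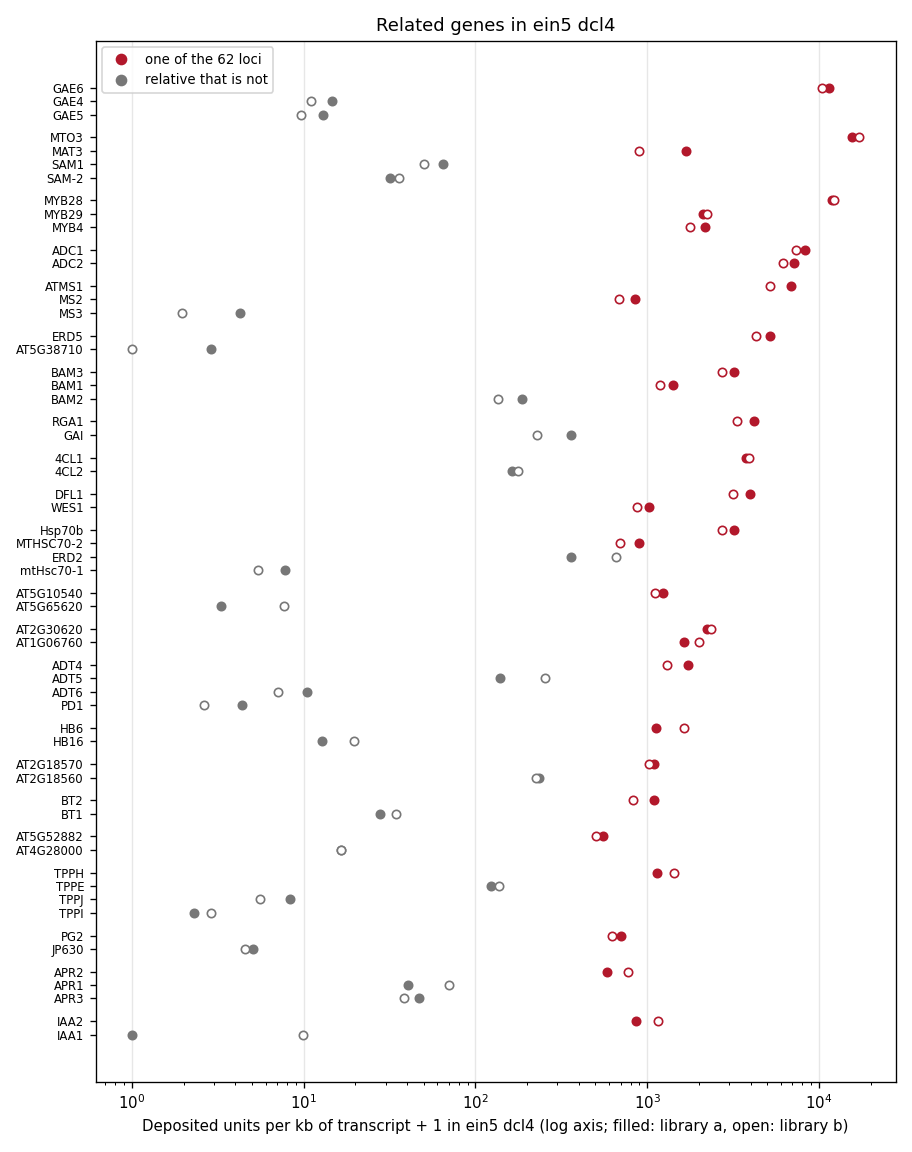
Small RNAs in ein5 dcl4 per kb of transcript + 1, on a log axis, for those of the 62 loci (red) that have a relative among the 62 or one of at least 70% identity, and for these relatives (grey), with filled points for library a and open points for library b. Within the S-adenosylmethionine synthetase genes MTO3 lies at 16366 units per kb on average, MAT3 at 1292, SAM1 at 56.5 and SAM-2 at 32.7.

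BAM1 and BAM2, which differed in level by 8.10 times per kb, are shown as a pair with a long shared run. They share 47 runs of 21 bases, 1.32% of those in BAM1, and the longest shared run has 41 bases (BAM1 chr5:26284542-26284592 and BAM2 chr3:18420424-18420474, both plus strand, TAIR10.1), given in capitals.
BAM1: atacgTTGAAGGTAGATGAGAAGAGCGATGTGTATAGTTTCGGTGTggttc
BAM2: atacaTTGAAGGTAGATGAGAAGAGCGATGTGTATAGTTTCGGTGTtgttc

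Small RNAs from an mRNA can also start where a miRNA binds, so transcripts were searched for matches to the 350 different mature sequences annotated for 428 miRNAs, without gaps and with at most 3 mismatches. A match was found in 11 of the 62 transcripts, 17.7%, against 13.7% of the protein-coding loci tested, and with at most 2 mismatches in 2 of 62, 3.23%, against 3.96%. Most matches were to the repetitive sequences of miR5021, miR414 and miR5658, which matched 467, 219 and 146 of the loci tested. ADC1 had a match with 2 mismatches to miR172b-5p, which matched 4 of the loci tested, in its coding part (chr2:7151631-7151650, minus strand, TAIR10.1). The miRNA is printed with its seed, bases 2 to 8, in capitals, in DNA letters as the genome has it, and the site with the bases that pair in capitals.
miR172b-5p: gCAGCACCattaagattcac
ADC1 site: GaGAATCTTtATGGTGCTGC
Whether this site is bound or cut was not tested, and a miRNA site with a bulge would not be found in this way.

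Genes of siRNA production and mRNA decay were not among the 62. Of 22 on the list used here, 5 would have passed the filter without ein5 dcl4. Of these 5, 2 were called higher in ein5 dcl4 relative to Col-0 and 1 lower in ein5 dcl4 dcl2 than in ein5 dcl4 (limma, adjusted p under 0.05), beside 55.4% and 50.6% of the protein-coding loci tested. Those shares take in loci that passed the filter only through ein5 dcl4, so they are no like measure for the 5. The highest of the 22 was AGO2, an antiviral Argonaute, with 417 and 296 units in ein5 dcl4. EIN5 itself had 0 and 1 read in ein5 dcl4, none in ein5 dcl4 dcl2 and 26 and 5 in Col-0, and DCL2 had at most 2 reads in any library. DCL4 had 4 and 8 reads in ein5 dcl4, 4 and 2 in ein5 dcl4 dcl2, and 0 and 4 in Col-0. On these reads DCL4 was called higher in ein5 dcl4 relative to Col-0 (limma adjusted p 0.0146). The reads of these genes are too few to check the genotypes.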

How the data were processed

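The authors deposited 1 table of 32420 loci with 1 signal value per locus and genotype, headed TPM, although the columns sum to 2404778 in ein5 dcl4, 1743399 in ein5 dcl4 dcl2 and 235535 in Col-0, so the total they are relative to is not known. The tools and build named per the submitters' processing notes are TAIR10, DESeq2, SAMtools 1.9 and Bowtie 1.2.2. Per the labels only read 1 was used. Strand, read lengths and the treatment of reads matching several loci are stated in none of the sources used here. Log2 fold changes that the authors deposited are quoted once, and their deposited p-values were not used.

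Each value was the mean of 2 libraries and could be written as whole reads times 1 step per library for 100% of values above 0 (relative tolerance 1e-14). Libraries of one genotype differed by more than sampling noise (chi-square per degree of freedom 5.26 in ein5 dcl4, 5.82 in ein5 dcl4 dcl2 and 3.18 in Col-0). Only loci with at least 10 reads over both libraries were used. Among the 62 loci it was 50.0 in ein5 dcl4 over all 62. In ein5 dcl4 dcl2 it was 2.32 over 8 of them, and in Col-0 1.45 over 27. Loci that averaged 1 unit or more were tested with limma 3.58.1 (R 4.3.3) on log2(value + 1), all 6 libraries in 1 fit, two-sided, with Benjamini-Hochberg adjusted p under 0.05 over 11376 loci. Fold changes on this scale understate changes of low loci. P-values weigh a difference between genotypes against the spread between libraries of the same genotype, pooled over the genotypes. They do not cover the choice of scale. The fit was also run on simulated reads, and no result here rests on that run. Its spread between libraries was set in advance and not taken from these libraries. Gene features came from RefSeq on TAIR10.1, a build that may differ from that of the table in annotation. Relatives came from blastp (BLAST 2.17.0). Promoter motifs were not searched.

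Named loci were the 15 highest in ein5 dcl4, those next to each threshold, the highest in the other genotypes, relatives, called loci with at least 10 reads, and the 3 whose ein5 dcl4 libraries differ most. Others were named from gene lists and groups. The 62 loci, the rule and all lists were chosen with earlier results of these data known, and the pathway lists after the members had been seen.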

Additional observations from a re-analysis of the deposited data

How the results depend on the processing

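The number of loci that met the rule was 40 with equal table totals and 108 with equal miRNA totals, against 62, and 61 to 63 with 1 library left out. Members called higher in ein5 dcl4 dcl2 than in Col-0 numbered 4, against 2 with a pseudocount of 10 or no filter, 21 with a filter at a mean of 10, 1 with equal table totals, 0 with equal miRNA totals or without a trended prior, 27 with voom on the recovered reads and 0 to 1 with 1 library left out. Members called lower numbered 0, against 1 with trimmed-mean rescaling, 19 with equal table totals and 12 with equal miRNA totals, and 0 to 0 with 1 library left out. AT5G20700 turned to -0.98 and -1.41 with equal table and miRNA totals.

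Over all loci, those called higher in ein5 dcl4 dcl2 than in Col-0 numbered 123, against 278 with a filter at 10, 72 with none, 62 with equal table totals, 4 with equal miRNA totals, 16 without a trended prior, 4803 with voom and 0 to 81 with 1 library left out. Those called lower numbered 34, against 114, 20, 3786, 1831, 12 and 275 under the same settings, 375 with trimmed-mean rescaling and 0 to 57 with 1 library left out. Those higher in ein5 dcl4 relative to Col-0 numbered 4401, against 647 with a filter at 10, 2933 with trimmed-mean rescaling, 1605 with equal table totals, 6826 with voom and 767 to 4338 with 1 library left out. Those lower in ein5 dcl4 dcl2 than in ein5 dcl4 numbered 4087, against 703 with a filter at 10, 1910 with equal table totals, 7755 with equal miRNA totals and 2137 to 3311 with 1 library left out. A filter at 10 tests fewer loci. For the other settings the cause was not tested.

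The share of reads held by the 62 loci was 17.5% to 18.5% in ein5 dcl4, 0.0169% to 0.0216% in ein5 dcl4 dcl2 and 0.0451% to 0.0533% in Col-0 with 1 library left out. The median of all loci tested in ein5 dcl4 over Col-0 was 1.49 in deposited units, 0.46 with trimmed-mean rescaling, -1.63 with equal table totals and 1.54 with equal miRNA totals. Where 1 library was left out, the lone library was assumed to vary like the other genotypes. No paired analysis was possible because the deposited columns are genotype means and the recovered libraries carry no replicate number. Over both libraries 54 of the 62 loci had fewer than 10 reads in ein5 dcl4 dcl2 and 35 in Col-0, which limits the precision of each locus.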
